A study of Sus scrofa with 12 samples.

Results

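The genes examined here encode the calpains and lysosomal cathepsins of skeletal muscle with their regulators, the proteases that have been tied to meat tenderness. They were taken by gene symbol from the gene counts of longissimus dorsi muscle. Of 10 symbols listed (CAPN1, CAPN2, CAPN3, CAPNS1, CAST, CTSB, CTSD, CTSL, CTSH and CST3), 9 were paired with a counted gene, out of 25880 counted genes in all. CAST, which encodes the calpain inhibitor calpastatin, was the symbol without a row and was not analysed here.

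RNA came from the muscle of 12 castrated male Iberian pigs of 1 closed commercial population, fattened free-range on acorns and grass, with 1 library per pig and no full siblings chosen. The 6 pigs of the High MB group had high breeding values for myoglobin and 2.48 ± 0.0657 mg/g of muscle myoglobin (SD, n = 6). The 6 pigs of the Low MB group had low breeding values and 1.39 ± 0.147 mg/g (SD, n = 6). No treatment or transgene set the groups apart.

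Calpains are cytosolic cysteine proteases that need calcium. CAPN1 and CAPN2 encode the large subunits of mu-calpain and m-calpain, which share the small subunit encoded by CAPNS1, and after slaughter they cut the proteins that hold the sarcomere together. CAPN3 encodes the muscle calpain p94, which is bound to titin in the sarcomere. Cathepsins work in the lysosome. CTSB, CTSL and CTSH encode cysteine proteases, CTSD encodes an aspartic protease, and CST3 encodes cystatin C, a secreted inhibitor of cysteine cathepsins.

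The coding bases around the catalytic cysteine are shown for the 6 cysteine proteases, since both families cut proteins with this residue, to which their inhibitors block access. Each run holds 45 coding bases from RefSeq on Sscrofa11.1, 5′ to 3′ on the coding strand, with the cysteine codon in capitals.
CAPN1: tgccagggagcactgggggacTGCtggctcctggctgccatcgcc
CAPN2: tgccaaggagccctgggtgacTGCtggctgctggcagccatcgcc
CAPN3: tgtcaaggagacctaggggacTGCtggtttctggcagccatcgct
CTSB: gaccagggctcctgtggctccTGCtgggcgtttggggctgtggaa
CTSL: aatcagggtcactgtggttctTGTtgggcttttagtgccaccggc
CTSH: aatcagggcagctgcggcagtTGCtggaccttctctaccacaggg
Every run is joined across an exon junction, and its span in the genome includes the intron, at chr2:7021725-7022036 (minus strand) for CAPN1, chr10:19764606-19790485 (plus strand) for CAPN2, chr1:128981279-128983343 (minus strand) for CAPN3, chr14:15020283-15021610 (minus strand) for CTSB, chr10:27672850-27673288 (minus strand) for CTSL and chr7:48096050-48098993 (minus strand) for CTSH. The coding sequences of CAPN1 and CAPN2 had 70.7% of 1860 aligned bases in common, and the longest stretch shared by any pair of the 9 genes was 23 bases. Reads of 150 bases are longer than that stretch. CTSL was closer to a gene outside the list, CTSV on chromosome 10, with 86.8% of 972 aligned bases in common and a longest shared stretch of 46 bases, also shorter than a read. How reads were split between CTSL and CTSV was not tested. No exon of the 9 genes overlapped an exon of another RefSeq gene.

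The total of gene counts lay between 38914271 and 91318334 per pig, and 5 libraries (High MB pigs 4 and 6, Low MB pigs 1, 5 and 6) were deeper than the other 7. ACTA1, the actin of skeletal muscle, had a mean of 44113 CPM (counts relative to the library size, which was scaled by the trimmed mean of M values, TMM) over the 12 pigs. On all 13373 genes tested, complete-linkage clustering of the pigs parted High MB pig 2 and Low MB pig 4 from the other 10. High MB pig 2 had the lowest sum of fast fibre markers (24188 CPM, against 40002 to 55391 CPM in the other 11 pigs) and the highest sum of macrophage markers (174 CPM). Its sum of general skeletal muscle fibre markers was also the lowest (40507 CPM, against 74324 to 130130 CPM in the other 11 pigs). MYH1, MYH2, MYH4 and MYLPF had no row, so both fibre sums lack them. Several results that lean on High MB pig 2 are given with and without it, or without it and Low MB pig 4. This was not done for every gene.

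None of the 9 genes was called different when the High MB group was set against the Low MB group. A gene was called by edgeR's quasi-likelihood test at an adjusted p under 0.10 with an absolute log2 fold change (FC) over 0.58, and 0% of all genes tested passed. The adjusted p of the 9 genes was between 0.563 and 0.948 (edgeR, Benjamini-Hochberg over 13373 genes). DESeq2 called 29 of 14417 genes (0.201%) and none of these 9. At an unadjusted p under 0.05, edgeR had 1 of the 9 genes, CST3, against 8.46% of all genes (5.33% with the High MB group above and 3.13% with it below). The log2 FC was above 0 for 5 of the 9 genes, against 46.9% of all genes, and the median log2 FC was 0.05, against -0.02 over all genes tested. In none of the 9 genes did the 2 groups separate fully, which happened in 0.232% of all genes with the High MB group above and in 0.194% with the Low MB group above.

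**Figure D1:**
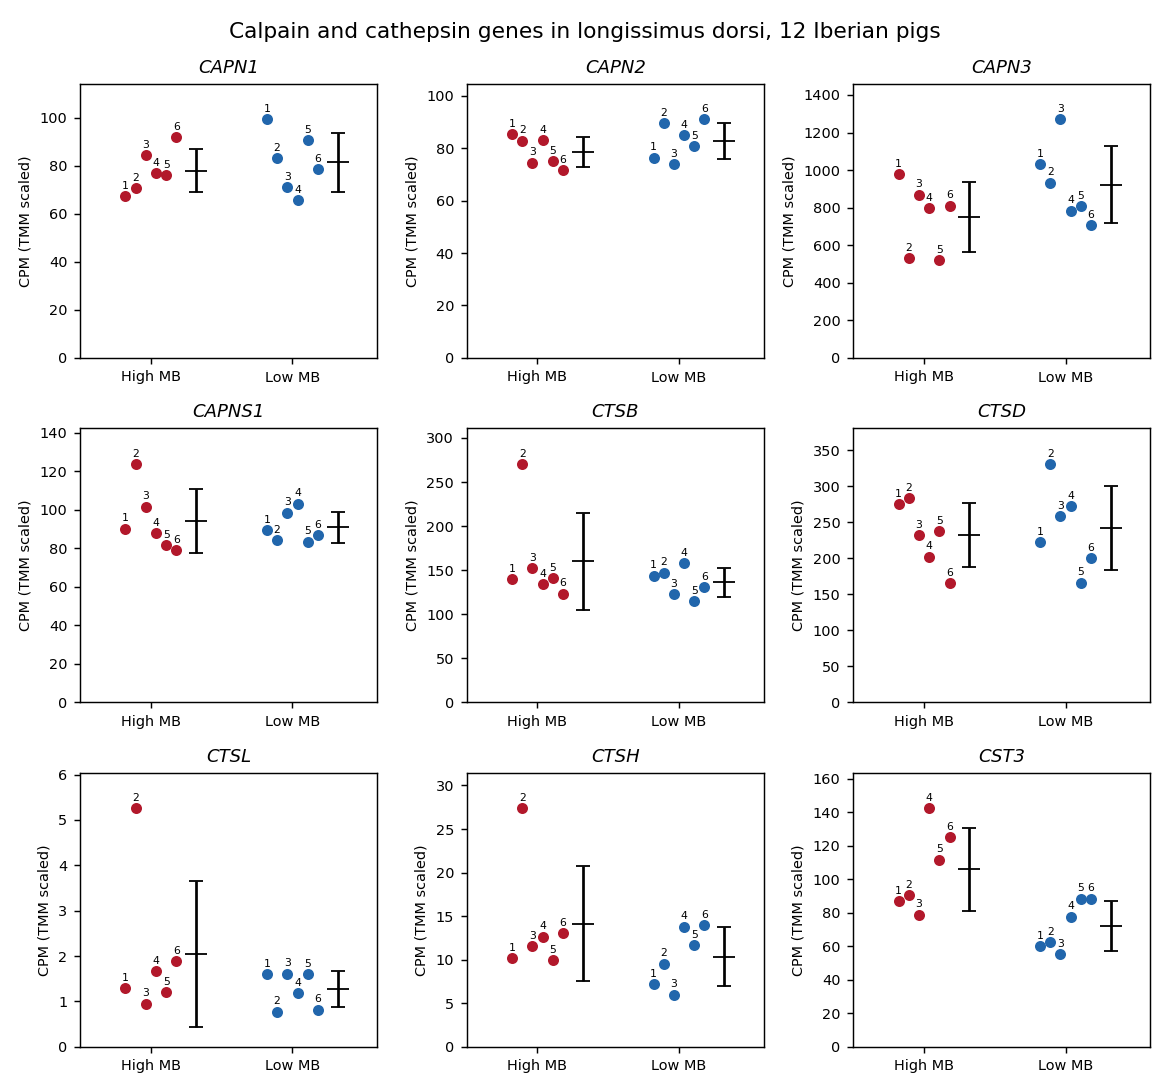
Each panel plots 1 gene in TMM-scaled CPM, with a linear axis from 0. Points are pigs, numbered within their group, and the bar beside them is the mean ± SD of 6 pigs. The groups overlap in every panel, and High MB pig 2 lies above the other 11 pigs for CTSB (270.6 CPM), CTSL (5.25 CPM) and CTSH (27.4 CPM).

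CAPN1 and CAPN2, the ubiquitous calpains, were close to equal in both groups. CAPN1 ranged from 67.4 CPM through a median of 76.6 to 92.0 CPM in the High MB group and from 65.9 through 80.8 to 99.3 CPM in the Low MB group. The highest and the lowest of the 12 pigs (Low MB pigs 1 and 4) were both in the Low MB group, which spanned the whole High MB range. The log2 FC of CAPN1 was -0.06 (SE 0.12, 95% interval -0.32 to 0.19, exact permutation p = 0.613, two-sided).

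CAPN2 ran from 71.6 through a median of 79.0 to 85.3 CPM in the High MB group and from 73.8 through 82.9 to 91.0 CPM in the Low MB group. The 2 highest pigs were Low MB pigs 6 and 2 and the lowest was High MB pig 6, with the rest intermixed. For CAPN2 the log2 FC came to -0.07 (SE 0.09, 95% interval -0.27 to 0.12, exact permutation p = 0.303). It was -0.04 without Low MB pig 2 and -0.02 with upper quartile scaling. CAPN2 was the most even of the 9 genes, with a coefficient of variation of 7.98% over the 12 pigs. Its SD of log2 CPM within groups, 0.11, was at the 1.97th percentile of all genes tested, whose median SD was 0.33.

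The ratio of CAPN1 to CAPN2, per kb of exon, was 0.653 ± 0.120 in the High MB group and 0.647 ± 0.124 in the Low MB group (SD, n = 6 each). The log2 difference of the ratio was 0.01 (SE 0.15, exact permutation p = 0.926). The ratio of either gene to CAST was not computed, for want of a CAST value.

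CAPNS1, the shared small subunit, ran from 79.0 through a median of 89.1 to 124 CPM in the High MB group and from 83.5 through 88.3 to 103 CPM in the Low MB group. High MB pig 2 alone lay above the Low MB range. Its log2 FC was 0.05 (SE 0.12, 95% interval -0.21 to 0.30, exact permutation p = 0.784), and it was -0.03 without that pig.

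CAPN3 took 53.0% of the summed CPM of the 9 genes and lay at the 99.0th percentile of mean CPM over the genes tested. Its values ran from 523 through a median of 803 to 978 CPM in the High MB group and from 708 through 871 to 1270 CPM in the Low MB group. The lowest 2 pigs were High MB pigs 5 and 2, the highest 2 were Low MB pigs 3 and 1, and the other 8 overlapped. CAPN3 had a log2 FC of -0.30 (SE 0.19, 95% interval -0.70 to 0.10, exact permutation p = 0.162). Without Low MB pig 3 the log2 FC was -0.17, and without High MB pig 2 it was -0.19. Among the 5 deep libraries it was -0.04 and among the other 7 it was -0.45, a difference between depths that did not pass (edgeR interaction, adjusted p = 1.00).

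CST3, the cystatin C gene, had the smallest p of the 9 genes, with 106 ± 24.7 CPM in the High MB group and 72.1 ± 14.7 CPM in the Low MB group (SD, n = 6 each), a fold of 1.47 (95% interval 1.14 to 1.89). In the High MB group its values were 78.9 CPM at the lowest, 101 CPM at the median and 142 CPM at the highest. In the Low MB group they were 55.4, 70.1 and 88.5 CPM. High MB pigs 4, 6, 5 and 2 lay above every Low MB pig, Low MB pigs 1, 2, 3 and 4 lay below every High MB pig, and High MB pigs 1 and 3 overlapped with Low MB pigs 5 and 6. This gave a log2 FC of 0.55 (SE 0.17, exact permutation p = 0.0152 as a single gene, with 0.00216 the smallest p of 6 against 6 pigs). Adjusted over all genes it did not pass (edgeR, adjusted p = 0.563), and over the alternative settings its adjusted p was 0.223 at the lowest (DESeq2). Leaving out each pig in turn gave a log2 FC between 0.45 (without High MB pig 4) and 0.63. The log2 FC was 0.80 within the deep libraries (2 against 3 pigs, exact permutation p = 0.1) and 0.50 within the others (4 against 3 pigs, exact permutation p = 0.0286), and both p-values are the smallest these numbers of pigs allow.

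**Figure D2:**
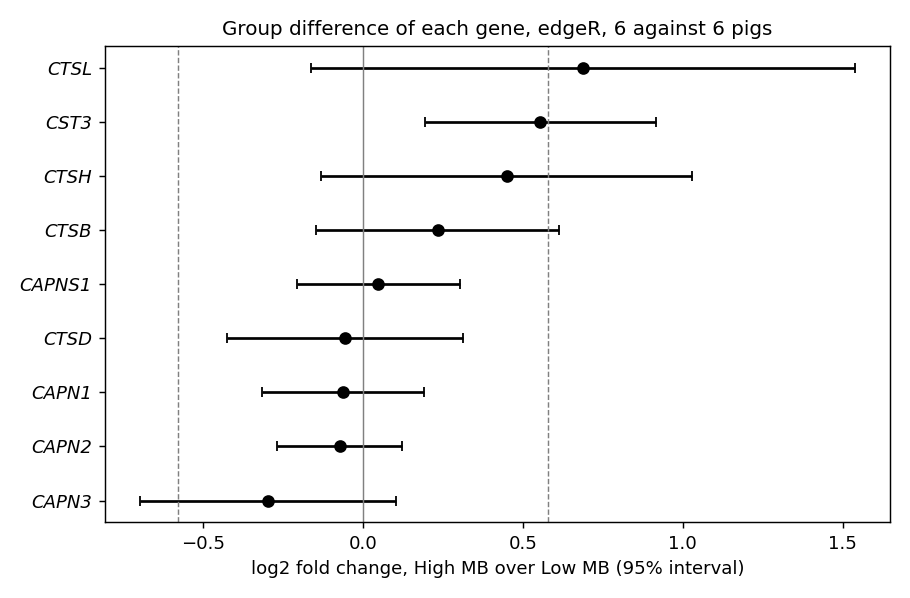
The log2 FC of each gene (High MB over Low MB, horizontal axis) is drawn as a point with its 95% interval from edgeR, 6 against 6 pigs. The dashed lines mark the limit of 0.58 in each direction, and the interval of CST3 (0.19 to 0.92) is the single one that leaves out 0.

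CTSB, CTSL and CTSH, the lysosomal cysteine proteases, had positive log2 FC that leaned on 1 pig. CTSB ran from 123 through a median of 140 to 271 CPM in the High MB group and from 115 through 137 to 158 CPM in the Low MB group. The highest value belonged to High MB pig 2, and the other 5 High MB pigs lay within the Low MB range. The log2 FC of CTSB was 0.23 (SE 0.18, 95% interval -0.15 to 0.61, exact permutation p = 0.394) and 0.04 without High MB pig 2.

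CTSH ran from 9.98 through a median of 12.1 to 27.4 CPM in the High MB group and from 6.00 through 10.6 to 14.0 CPM in the Low MB group. High MB pig 2 was the highest again, and Low MB pigs 1, 2 and 3 lay below every High MB pig. CTSH had a log2 FC of 0.45 (SE 0.27, 95% interval -0.13 to 1.03, exact permutation p = 0.210) and 0.17 without High MB pig 2.

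CTSL was counted at a low level, from 31 to 253 counts per pig. It ran from 0.955 through a median of 1.48 to 5.25 CPM in the High MB group and from 0.775 through 1.39 to 1.62 CPM in the Low MB group. High MB pigs 2, 6 and 4 lay above the Low MB range, and High MB pig 2 alone was far from it. CTSL had a log2 FC of 0.69 (SE 0.40, 95% interval -0.16 to 1.54, exact permutation p = 0.286) and 0.17 without High MB pig 2.

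CTSD, the aspartic protease, ran from 165 through a median of 235 to 283 CPM in the High MB group and from 166 through 241 to 331 CPM in the Low MB group. The groups covered nearly the same range, with Low MB pig 2 at the top. The log2 FC was -0.06 (SE 0.17, 95% interval -0.42 to 0.31, exact permutation p = 0.820).

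The balance of a cathepsin and its inhibitor was followed as a ratio per kb. CTSB over CST3 was 0.262 ± 0.125 in the High MB group and 0.317 ± 0.0753 in the Low MB group (SD, n = 6 each), with High MB pigs 4, 6 and 5 below every Low MB pig and High MB pig 2 above them all. The log2 difference was -0.36 (SE 0.30, exact permutation p = 0.251) and -0.56 without High MB pig 2 (exact permutation p = 0.0563). It was -0.23 without High MB pig 4 (exact permutation p = 0.457), -0.24 without High MB pig 6, -0.79 within the deep libraries and -0.25 within the others. CTSL over CST3 was 0.00679 ± 0.00616 and 0.00614 ± 0.00263 in the High MB and Low MB groups, a log2 difference of -0.07 (SE 0.45, exact permutation p = 0.90). The means and the log values differ in sign, and High MB pig 2 had 0.0193, the highest ratio. Without that pig the log2 difference was -0.42 (exact permutation p = 0.188).

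Levels of different genes were compared as CPM per kb of exon in the RefSeq models. CAPN3 was the highest with a mean of 240.5 CPM per kb over the 12 pigs (SD 59.5), followed by CST3 with 189 (SD 55.6), CTSD with 118 (SD 24.6), CAPNS1 with 68.2 (SD 9.23) and CTSB with 50.9 (SD 13.9). CAPN2 had 25.7 CPM per kb (SD 2.05), CAPN1 16.5 (SD 2.17), CTSH 8.60 (SD 3.76) and CTSL 1.17 (SD 0.838). CAPN3 and CST3 were not separated: CAPN3 was the higher in 8 of 12 pigs (exact sign-flip permutation p = 0.102). Each later neighbour in this order was lower in at least 10 of 12 pigs (exact sign-flip permutation p between 0.000488, the smallest possible, and 0.00391). A gene's length is the same for every pig, so these p-values do not cover errors of the lengths. CAPN2 and CAPN1 had nearly equal mean CPM (80.8 and 79.7). Their order per kb came mostly from the lengths of their models, 3.141 and 4.815 kb. The CST3 model is short, at 0.471 kb, so its level per kb would be overstated if the counted gene had longer ends.

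**Figure D3:**
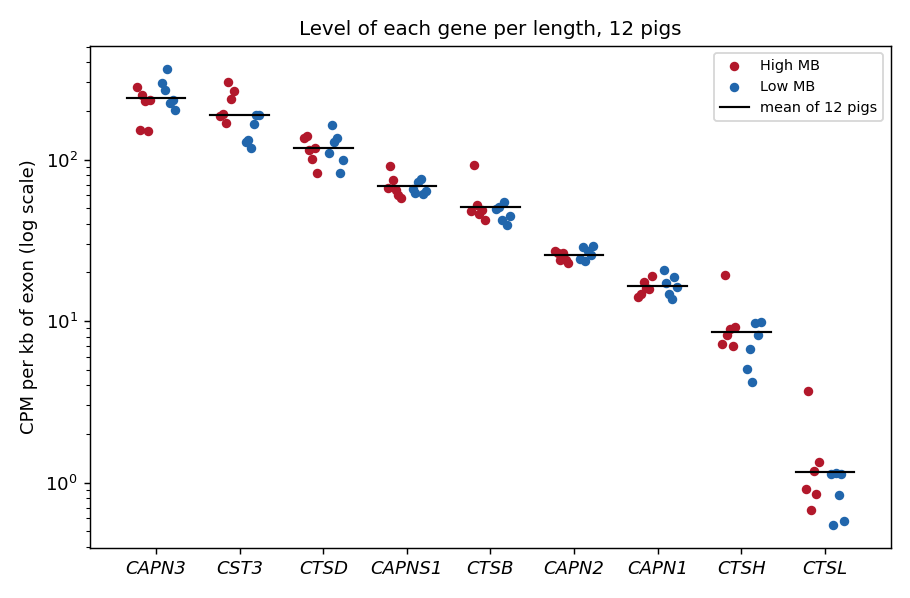
The level of each gene is plotted in CPM per kb of exon on a logarithmic axis, with 1 point per pig and a line at the mean of 12 pigs. The order runs from CAPN3 (240.5 CPM per kb) to CTSL (1.17 CPM per kb), and the points of CAPN3 and CST3 overlap.

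The 9 genes did not vary as 1 block among pigs. After removal of the group means, 17 of the 36 pairs of genes had a positive Pearson r of log2 CPM over the 12 pigs, and no pair had a permutation p under 0.05 after adjustment over the 36 pairs (6 pairs had an unadjusted p under 0.05). The strongest pair was CAPNS1 and CTSB, with r = 0.83 (permutation p = 0.00216, adjusted p = 0.0778) and Spearman's rho = 0.68. This relation rests on few pigs, as r was 0.39 without the 2 pigs farthest from the median of CAPNS1. Leaving out High MB pig 2 and Low MB pig 4 gave 5 pairs with an unadjusted p under 0.05 and again none under 0.05 after adjustment. The 2 pairs with an unadjusted p under 0.05 in both sets of pigs had opposite signs. CTSB with CTSD had r = 0.60 over 12 pigs and 0.70 without those 2 pigs. CTSD with CST3 had r = -0.65 and -0.69, and CTSB with CTSL went from r = 0.56 to r = -0.67.

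Among 11623 genes with a mean of at least 1 CPM, those closest to each member in pattern over the 12 pigs, by Pearson r of log2 CPM with group means removed, are given as a description. CAPN3 was nearest to CAT (r = 0.93), which encodes catalase, and then to CCNDBP1 and CEP85. CAPN1 was nearest to SLC7A5 (r = 0.94), an amino acid transporter gene, then SMARCD3 and PRDX4, and CAPN2 to CEP162 (r = 0.87), APPBP2 and SLC25A24. CST3 was nearest to MYMK (r = 0.89), a gene of myoblast fusion, then PCSK1N and CCDC80. The nearest named genes were NSF (r = 0.97), NADK and HUWE1 for CAPNS1, EPRS1 (r = 0.94) and TTF1 for CTSD, DNAJB11 (r = 0.91), YIPF5 and ZC3H12A for CTSL, and RAP2B (r = 0.93), ZYX and HK1 for CTSH. For CTSB they were S100A4 (r = 0.96) and CD9 (r = 0.95), which fell to 0.67 and 0.56 without High MB pig 2 and Low MB pig 4. For CTSL, r with DNAJB11, YIPF5 and ZC3H12A was 0.73, 0.71 and 0.69 without those pigs.

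Markers of other cells in the muscle were counted beside these genes, and neither edgeR nor DESeq2 called any of them. In bulk tissue, fewer cells of a type and less RNA per cell cannot be told apart. All 8 fibroblast markers were measured and 5 were higher in the High MB group at an unadjusted p under 0.05, against 5.33% of all genes. Their sum ran from 663 to 1167 CPM in the High MB group and from 347 to 854 CPM in the Low MB group (exact permutation p = 0.0498), with no marker at 0. The exact permutation p of that sum was 0.103 without High MB pig 2 and Low MB pig 4. CST3 followed that sum over the 12 pigs after removal of the group means, with r = 0.77 (permutation p = 0.0056, adjusted p = 0.0756 over 54 pairs of a gene and a marker sum), rho = 0.76 and r = 0.71 without the 2 farthest pigs. The part of fibroblast RNA in the CST3 difference was not tested.

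Of 12 macrophage markers, 10 were higher in the High MB group at an unadjusted p under 0.05 (5.33% of all genes), and their sum ran from 71.7 to 174 CPM against 34.7 to 82.5 CPM (exact permutation p = 0.0217). Without High MB pig 2 the High MB sums ended at 120 CPM, and with Low MB pig 4 left out too the exact permutation p was 0.0317. CTSH followed the macrophage sum with r = 0.83 (permutation p = 0.00086, adjusted p = 0.0239), rho = 0.72 (adjusted p = 0.0954) and r = 0.63 without the 2 farthest pigs. CTSB and CAPNS1 ran against the fast fibre sum, with r = -0.88 and r = -0.85 (adjusted p = 0.0239 each, permutation p = 0.00133 and 0.00096), which came to -0.52 and -0.56 without the 2 farthest pigs. These 3 were the pairs of the 54 with an adjusted p under 0.05 by Pearson's r, and by rho none of the 54 was under 0.05. The part of macrophage or fibre RNA in the group values of CTSH, CTSB and CAPNS1 was not tested.

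**Figure D4:**
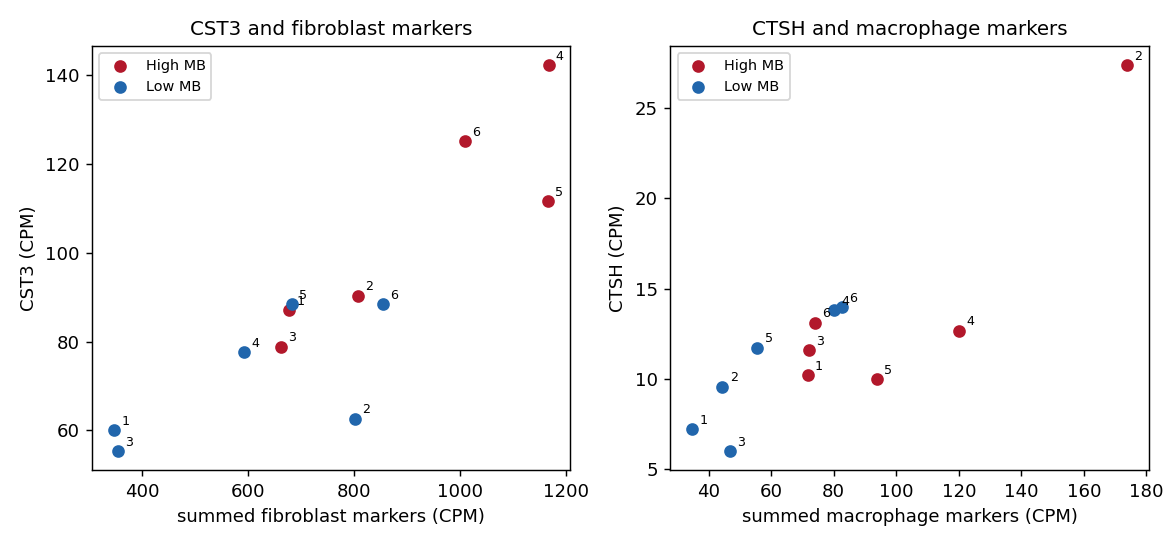
CPM of CST3 against the summed CPM of 8 fibroblast markers (left) and of CTSH against 12 macrophage markers (right), with 1 numbered point per pig. High MB pigs 4, 5 and 6 are the highest for both CST3 and the fibroblast sum, and High MB pig 2 stands alone at the top right for CTSH.

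Slow fibre markers were higher in the High MB group for 5 of 6 measured genes at an unadjusted p under 0.05, adipocyte markers for 2 of 7 and red blood cell markers for 2 of 2, against 5.33% of all genes. The adipocyte count was 1 without High MB pig 2 and Low MB pig 4, and the exact permutation p of the adipocyte sum went from 0.0368 to 0.0873. No endothelial marker of 5, lymphocyte marker of 4 or satellite cell marker of 4 had an unadjusted p under 0.05, and 1 of 5 fast fibre markers was lower. Whether these sums bear on the protease genes was not tested beyond the correlations given.

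In the wider families, none of the genes was called by edgeR or DESeq2. Of 6 other calpain genes tested, none had an unadjusted p under 0.05. CAPN7, a calpain without the calcium-binding domain of the classical enzymes, was nearest to it with 22.3 ± 2.47 CPM in the High MB group and 25.8 ± 3.16 CPM in the Low MB group (log2 FC -0.21, SE 0.11). CAPN15 had a log2 FC of 0.15 (SE 0.13) and CAPN10 of 0.04 (SE 0.15).

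Of 9 genes tested for other cathepsins and legumain, 2 were higher at an unadjusted p under 0.05 and none lower (5.33% and 3.13% of all genes), with a median log2 FC of 0.02. CTSS, a cathepsin of antigen-presenting cells, had 13.3 ± 5.86 CPM in the High MB group and 8.11 ± 2.70 CPM in the Low MB group (log2 FC 0.71, SE 0.26). CTSZ had 40.6 ± 10.2 and 31.5 ± 3.62 CPM (log2 FC 0.37, SE 0.15). With High MB pig 2 and Low MB pig 4 left out, neither direction had a gene at that limit, and the log2 FC was 0.44 for CTSS and 0.24 for CTSZ. CTSF had the highest level of the measured cathepsins, at 1076 CPM per kb. It had 2361 ± 605 CPM in the High MB group and 2895 ± 399 CPM in the Low MB group (log2 FC -0.29, SE 0.19). The log2 FC of CTSF was -0.18 without High MB pig 2 and Low MB pig 4. CTSV, the near relative of CTSL, had 54.9 CPM per kb and a log2 FC of -0.06 (SE 0.21). LGMN, the gene of the asparaginyl protease legumain, had a log2 FC of 0.32 (SE 0.17). Without High MB pig 2 and Low MB pig 4 it was -0.24 for CTSV and 0.20 for LGMN.

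Of 3 other genes for cysteine protease inhibitors tested, 1 was higher at an unadjusted p under 0.05 and none lower (5.33% and 3.13% of all genes). This was CSTB, the cytosolic cystatin B, with 23.5 ± 6.93 CPM in the High MB group and 17.9 ± 1.67 CPM in the Low MB group (log2 FC 0.39, SE 0.17). None of the 3 had an unadjusted p under 0.05 without the 2 pigs that stood apart, where CSTB had a log2 FC of 0.24. LXN had a log2 FC of 0.53 (SE 0.33) and CST6 of -0.09 (SE 0.22).

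Of 32 genes of the lysosomal membrane, enzymes and sorting, 4 were higher at an unadjusted p under 0.05 and none lower (5.33% and 3.13% of all genes), with a median log2 FC of 0.02. They were LIPA, the lysosomal acid lipase (log2 FC 0.72, SE 0.26), GUSB (0.51, SE 0.20), PPT1 (0.30, SE 0.14) and ASAH1 (0.30, SE 0.13). The count was 3 higher and 1 lower (TFE3) without the 2 pigs that stood apart. The log2 FC was then 0.51 for LIPA, 0.38 for GUSB and 0.21 for PPT1. The members with the most counts were nearly level between the groups, with a log2 FC of 0.07 (SE 0.10) for PSAP, -0.04 (SE 0.17) for CD63 and -0.19 (SE 0.17) for SCARB2.

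Of 16 calpain substrates and sarcomere partners of CAPN3 tested, 1 was higher at an unadjusted p under 0.05 and none lower (5.33% and 3.13% of all genes). This was TNNT1, the slow fibre troponin T, with 2022 ± 402 CPM in the High MB group and 1373 ± 336 CPM in the Low MB group (log2 FC 0.56, SE 0.18). It is a slow fibre marker as well. The most counted members had a log2 FC of -0.03 (SE 0.18) for TNNT3, -0.17 (SE 0.16) for NEB and 0.00 (SE 0.17) for DES, and SPTAN1, an early calpain substrate, had 0.24 (SE 0.13). These are RNA values, and protein cleavage was not measured here.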

How the data were processed

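RNA of longissimus dorsi muscle was sequenced as 150-base pairs, with 1 library per pig. The deposited values are raw counts per gene from htseq-count, which the authors made after trimming (TrimGalore) and alignment (hisat2, Sscrofa11.1), without normalization. The annotation release, tool versions and strand setting were not given in the sources used here. Rows naming no gene stayed out of library sizes. Gene rows held 47.0 to 48.2% of the sum of gene counts, reads without a feature and ambiguous reads. The other summary rows of htseq-count were not part of that sum. Transcript counts were not used here.

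Pigs were grouped by label. edgeR 4.0.16 (TMM, filterByExpr, quasi-likelihood test, R 4.3.3) compared the groups without covariates over 13373 genes. CPM were TMM-scaled, and log2 CPM used a prior count of 2. Single genes were compared with two-sided exact permutation tests over the 924 splits of 6 and 6 pigs, and correlations with 100000 permutations. The tests set group differences and correlations against the spread between pigs, and depth sets the counting error. Alternatives were DESeq2 1.42.0, other scalings and filters, depth as a covariate or class, the replicate block and each pig left out. The lists and the gene-pair correlations without High MB pig 2 and Low MB pig 4, and the marker correlations, were added after the values were seen. Lengths and sequences came from RefSeq on Sscrofa11.1.

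The members and the gene lists were chosen with earlier results of these data known. Named genes of a list were its 3 with the highest mean CPM and its 2 with the smallest p, and PPT1, ASAH1, TFE3 and ACTA1 were named after their values were seen. Neighbours were the 3 genes with the highest r. CAST had no matching symbol and is not reported here.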

Additional observations from a re-analysis of the deposited data

Results flagged for a closer look

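In each group of 6 pigs, the highest and lowest values of 9 genes and 3 ratios were checked with Dixon's limit for 6 values (the gap to the nearest pig over the whole range), which chance passes in about 1 in 20 groups. Of 24 sets of 6 values, 4 passed, and all 4 were High MB pig 2. Its CTSB was 270.59 CPM, against 123 to 152 CPM in the other High MB pigs. Its CTSL was 5.25 CPM, against 0.955 to 1.89 CPM, from 253 counts. Its CTSH was 27.4 CPM, against 9.98 to 13.1 CPM. Its ratio of CTSL to CST3 per kb was 0.0193, against 0.00357 to 0.00503.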

How the results depend on the processing

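Of 216 values of the 9 genes recomputed under the alternatives, 210 kept their direction and their side of the threshold and 6 changed direction, all of them near 0. DESeq2 with its defaults called 29 genes in all, and every other alternative in which genes were counted called 0 (this count was not made within the depth classes). The log2 FC of CAPN1 was 0.0334 within the shallower libraries and from -0.1155 to 0.00251 with each pig left out, that of CAPNS1 was -0.0126 within the deep libraries and from -0.0265 to 0.103 with each pig left out, and that of CTSD was from -0.144 to 0.0669 with each pig left out. The log2 difference of CAPN1 over CAPN2 was -0.0101 without High MB pig 2 and Low MB pig 4 and from -0.0612 to 0.0971 with each pig left out, and that of CTSL over CST3 was 0.0389 within the shallower libraries and from -0.4245 to 0.0867 with each pig left out. The causes were not tested. With the individual number as a replicate block, 0 genes were called and the log2 FC of CST3 was 0.55. Same-numbered pigs deviated together with correlations from -0.21 to 0.14, and 0 of 6 pigs were closest to their own number. No pairing by number was seen, and 6 numbers are too few to decide whether there was any. Ratios to CAST could not be computed. The 31 to 253 counts of CTSL give it the least counting precision of the 9 genes.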
